A study of Caenorhabditis elegans with 2 samples.

Results

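Of 6850 peaks in the thresholded LSY-2 list, 243 had their summit in annotated coding sequence or a 3′ UTR. A summit is the base of strongest signal within a peak, as given by the authors. It was placed in coding sequence when any transcript of a protein-coding gene had coding sequence there, and otherwise in a 3′ UTR when any such transcript had one. Coding sequence held 130 summits and 3′ UTRs held 113, and 238 genes hosted them. Some of these bases had a second annotation. An intron of another transcript covered 13 coding sequence and 10 3′ UTR summits, among them those of eat-16, alh-4, nhr-34, ZK112.4, sma-2 and nrfl-1 below. A 5′ UTR of another transcript covered 9 and 4. Without summits of either kind, 109 and 100 remained. The peaks came from chromatin immunoprecipitation and sequencing of whole Caenorhabditis elegans L1 larvae of mixed sex, hatched from bleached animals and kept starved. The strain was OP367, with genotype unc-119(tm4063) III and the transgene wgIs367, which supplies LSY-2 fused to eGFP. There were 2 biological replicates in a single group, with no second condition, so each comparison below is between sets of peaks and carries no p-value. Chromatin came from all tissues together, so a peak cannot be assigned to a cell type, and the tagged protein from the transgene was measured, not LSY-2 made by an untagged animal.

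LSY-2 is a zinc finger transcription factor of the C2H2 kind, first studied because the left and right ASE taste neurons need it to become different from each other. Genes of this nematode are short and closely packed, so the last exon of a gene can lie within the promoter of the gene that follows. Many genes are transcribed in operons, where the downstream gene's message is split off by trans-splicing, and trans-splicing also removes the first transcribed bases of many messages, so that the annotated 5′ end of a gene is often the splice site near its start codon and not the place where transcription began.

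The sequences at a few summits are shown for reference beside the values that follow. Each line holds 30 bases of the ce11 plus strand centred on the summit, from the RefSeq copy of that assembly, and names the host gene. Capitals mark, on either strand, the word GAGAGA, the word ACGCAG, the word AATAAA or the word TTTCAG, or a word of 10 bases found within 50 bp of at least 5 of the 243 summits. The first 5 lie in coding sequence and were among the strongest there, the next 5 lie in 3′ UTRs and were among the strongest there, snf-6 and nrfl-1 show recurring words outside every gene's promoter window, and bcs-1 and chmp-7 lie in coding sequence just downstream of ribosomal protein genes.
lelo-4: cgCTGCGTgtcaccctgcggatcttactca
pks-1: tatccaagagactcatctcgtgtcccttcg
R12C12.6: ccagtgcaacttactggcgcttttcgcgat
daf-15: agacaaaaagtgcaacggagcgcacttgca
K07C5.13: caatcgcgaaaagcgccagcaagatgcact
C06H5.8: tGCGTCTCTTCTCTCTCgcacgtagcgatg
alh-4: cacgactagtcCGCAAACACCGagcctact
ulp-2: agtgggcggagactaatagcgtgccagggt
cept-2: gcggcgatgatttctagtcgcacgaccggc
spe-42: tcgaaaagtacattgtcattggagcgcgct
snf-6: tttggcgCTACAGTAACCcggaaaattcaa
nrfl-1: cAGAGACGCAGgtattccgcgcactgagat
bcs-1: ggaatagcaatgagctttctgcggaggaca
chmp-7: tgttaatgctaatggatttaatgatgccga
The windows of 50 bp to either side of the summits of R12C12.6 on chromosome II and K07C5.13 on chromosome V shared a run of 24 bases in opposite orientation, which was in no other window of the list. Of the first 10 lines, those of lelo-4, C06H5.8 and alh-4 hold a marked word and the others hold none. Among all 243 windows, 3 pairs shared a run of at least 17 bases.

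Coding sequence made up 24.6% of the genome and held 1.90% of the summits (95% Wilson interval 1.60 to 2.25%). 3′ UTRs made up 3.35% and held 1.65% (1.37 to 1.98%). Regions outside the thresholded list more often had summits in these features. Among 23150 regions of the pooled list that were not in the thresholded list, 8.83% of summits were in coding sequence and 4.91% in 3′ UTRs. Introns were not counted there. Taken alone, the 6850 strongest regions of replicate 1 put 130 summits in coding sequence and those of replicate 2 put 134, and in 3′ UTRs the counts were 139 and 113. The intervals cover counting error only. Read depth is unknown, and the scaling of the signal values is not given in the sources used here.

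Most of these peaks were weak. The median of the authors' signal value was 105 at coding sequence summits and 123 at 3′ UTR summits, against 169 over all thresholded peaks, 134 at intron summits and 197 at summits outside protein-coding genes. The weakest 30% of the list held 71 of the coding sequence summits, or 54.6%, and 50 of those in 3′ UTRs, or 44.2%. The strongest 10% of the list held 2 coding sequence summits and 4 in 3′ UTRs. The share of peaks with a summit in either feature was 6.13% in the weakest 10% and 0.876% in the strongest 10%, and the share did not decline at every step between them.

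**Figure D1:**
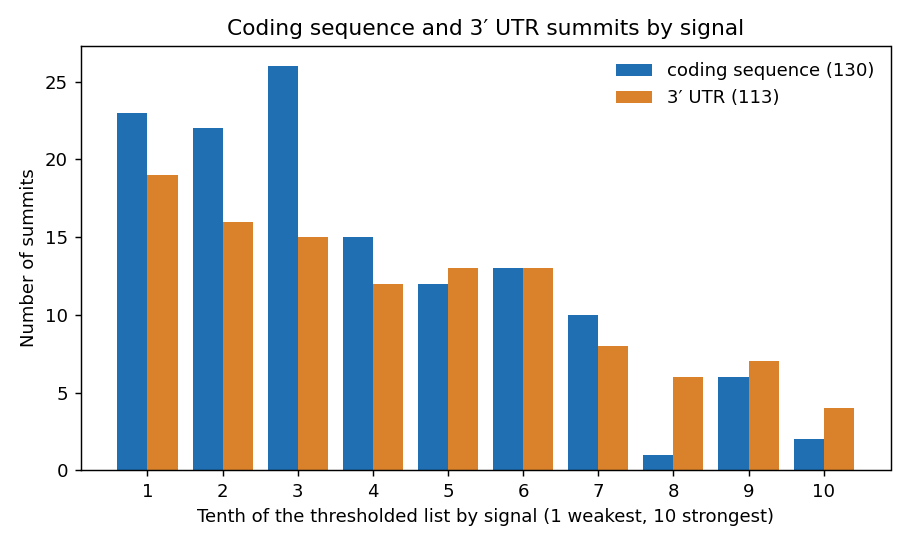
Number of coding sequence summits (blue) and 3′ UTR summits (orange) in each 10% of the thresholded list, ordered by the authors' signal value from weakest (1) to strongest (10). Coding sequence summits fell from 23 in the weakest 10% to 2 in the strongest 10%, and 3′ UTR summits from 19 to 4.

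A share of the coding sequence summits lay at the start of their own host gene. A promoter window began 1000 bp before a gene's annotated 5′ end and reached 200 bp past it. The host's own window held 48 of 130 summits, or 36.9% (29.1 to 45.5%), against 9.05% of all coding sequence bases. The first exon held 55 summits, and the share of coding sequence bases in first exons was not computed. Another count of 55 was of summits up to 200 bp downstream of the 5′ end of some host transcript. Of these, 18 were in host genes with no annotated 5′ UTR in any transcript, where the start codon is the annotated 5′ end. The median distance from the summits to the edge of the coding sequence was 40 bp, and 84 of 130 lay within 50 bp of it. The coding segments that held them were short, with a median length of 179.5 bp. The share of all coding sequence bases this near an edge was not computed, so closeness to the edge was not tested.

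The coding sequence summit of highest signal was in the first exon of Y18D10A.4 (chrI:12815769-12816257), 97 bp from the gene's 5′ end, with a signal of 769.6. Replicate 1 had 296 there and replicate 2 had 470.2. Next came lelo-4 (chrII:5714876-5715173), with 724 in the thresholded list, 357 in replicate 1 and 370.2 in replicate 2. It lay 105 bp into lelo-4 and 206 bp upstream of tiar-1, which encodes an RNA-binding protein of stress granules and is on the opposite strand. Both genes' windows therefore held this summit.

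Divergent pairs of this kind recurred among the strongest coding sequence summits. The summit of R12C12.6 (chrII:6047708-6047970) lay 25 bp into the gene and 267 bp upstream of ran-5, with a signal of 630.1 and replicate signals of 337 and 287. That of rpb-7, which encodes an RNA polymerase II subunit, lay 29 bp into the gene (chrI:3032772-3033050) and 26 bp upstream of Y54E10BR.2, with 621 in the list and 313 and 302 in the replicates. T28D9.11 and T16G1.18, with signals of 295 and 258, also shared the summit with a neighbour on the opposite strand, T28D9.1 and T16G1.9. In all, 11 of the coding sequence summits lay in both the host's and a neighbour's window, counted whatever the neighbour's strand. These were not all divergent pairs, as K07C5.13 below had its neighbour on the same strand. The share of coding sequence bases in both windows was not computed.

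In daf-15 and F17C11.4 the summit lay in the host's own window alone. daf-15 encodes the Raptor component of the TOR kinase complex, and its summit lay 18 bp from the 5′ end in exon 1 of 20 (chrIV:9386099-9386347), with a signal of 443 and replicate signals of 227 and 211. In F17C11.4 the summit lay 10 bp from the 5′ end (chrV:10951724-10952012), with 412 in the list, 159.9 in replicate 1 and 254 in replicate 2. In K07C5.13 (chrV:10342135-10342363), which lay in its own window and 785 bp upstream of K07C5.3 on the same strand, the signal was 284, with 144 and 141. The replicate values of daf-15 and K07C5.13 differed by less than those of F17C11.4, for which log2 of replicate 2 over replicate 1 was 0.67.

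Further summits lay at the starts of other annotated transcripts. The summit in exon 2 of nhr-34 (chrIV:9672525-9672786), a nuclear hormone receptor gene, lay 3023 bp from the gene's outermost 5′ end but 21 bp downstream of the 5′ end of another transcript. Its signal was 423, with 212 in replicate 1 and 208 in replicate 2. The summit in sma-2, an R-SMAD of TGF-beta signalling, was 18 bp into a shorter transcript and 160 bp upstream of tomm-70, which encodes a mitochondrial import receptor. Among coding sequence summits in no gene's window, 10 lay in the window of another transcript of their host, and 62 of 130 were in no window of any transcript. The share of coding sequence bases in the windows of all transcripts was not computed, so these counts have no background.

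A neighbour's promoter window held 19 coding sequence summits, or 14.6% (9.56 to 21.7%), against 11.4% of coding sequence bases, a share within the interval. No window held 74, or 56.9% (48.3 to 65.1%), against 81.4% of coding sequence bases. Of these the strongest was in pks-1 (chrX:5429351-5429749), which encodes a polyketide synthase. It lay in exon 22 of 31, 15739 bp from the 5′ end, with a signal of 664 and replicate signals of 288 and 375. The nearest 5′ end of another gene was 15199 bp away. ZK112.4, with a single exon, was also in no window because its summit lay 264 bp from the 5′ end, with a signal of 265 and replicate signals of 142 and 122.

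**Figure D2:**
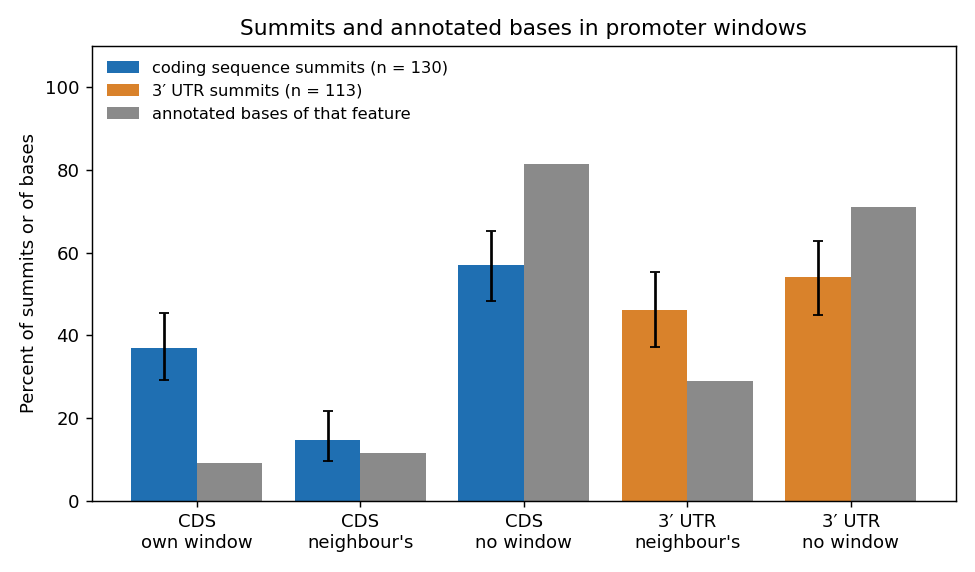
Percent of coding sequence summits (blue) and of 3′ UTR summits (orange) in the host's own promoter window, in a neighbour's window or in none, with 95% Wilson intervals, beside the percent of all annotated bases of the same feature (grey). Coding sequence summits were in their own window at 36.9% against 9.05% of bases, and 3′ UTR summits in a neighbour's at 46.0% against 28.9%.

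Many coding sequence summits lay just past the 3′ ends of ribosomal protein genes. Ribosomal protein genes here are the 81 genes of the cytosolic ribosome with an rpl, rps or rla symbol. None of them hosted any of the 243 summits, and the mitochondrial ribosomal protein gene mrpl-44 hosted 1 in its 3′ UTR, with a signal of 86.1. Of the 130 coding sequence summits, 30, or 23.1% (16.7 to 31.0%), lay up to 1000 bp downstream of the 3′ end of one. Only 0.143% of coding sequence bases lie there, and 1.07% of all thresholded summits. Each of the 30 had a different ribosomal protein gene upstream. None lay within a ribosomal protein gene or in the 1000 bp before one. This grouping was looked for after the summits had been seen.

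The distances were narrow. The 30 summits lay from 62 to 673 bp past the 3′ end, with a median of 273.5 bp, and 27 lay within 500 bp. Counted from the 5′ end of the ribosomal protein gene, the range was 540 to 1783 bp and the median 1028 bp. Hosts were on the same strand as the ribosomal protein gene in 17 cases and on the opposite strand in 13. In 19 of the 30 the summit was in no promoter window and in 11 it was in the host's own.

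**Figure D3:**
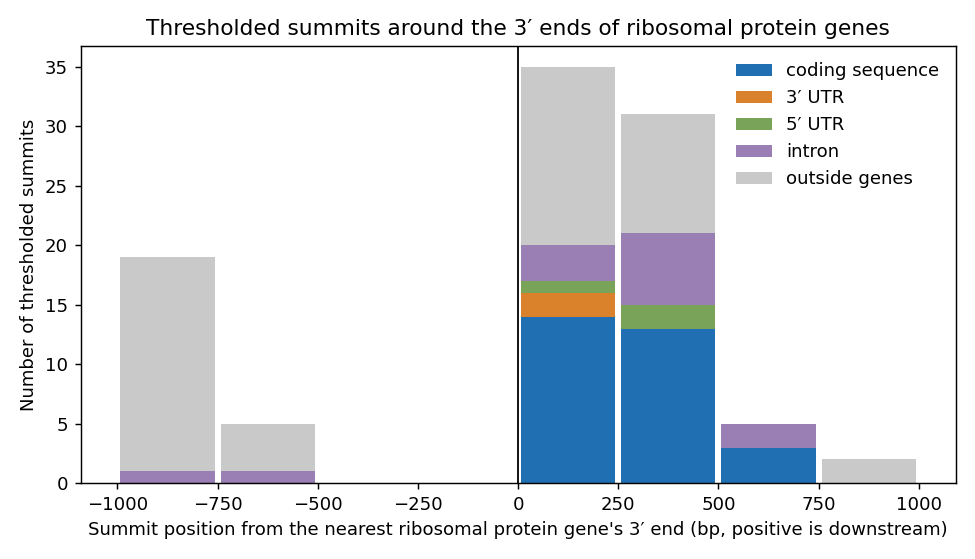
Number of thresholded summits in steps of 250 bp from the 3′ end of the nearest ribosomal protein gene, by the feature that holds the summit (colours, stacked); positive positions are downstream. No summit lay in the 500 bp before the 3′ end, while 14 coding sequence summits lay from 0 to 250 bp and 13 from 250 to 500 bp after it.

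Among the strongest of these, the summit in D1007.10 lay 299 bp past rpl-24.1 with a signal of 188, and the replicates had 94.8 and 90.4. That in bcs-1, whose product assembles respiratory complex III, lay 140 bp past rpl-5 (chrII:8571185-8571343) with 178 in the list, 99.1 in replicate 1 and 79.0 in replicate 2. That in F53G12.9 lay 150 bp past rpl-7, with 174 in the list and 83.3 and 91.7 in the replicates. All 3 were above the list's median of 169 and well below the strongest coding sequence summits.

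Further along the order were chmp-7, a gene of the ESCRT-III membrane-remodelling family, 278 bp past rpl-32 with a signal of 142, and nbs-1, a DNA repair gene, 186 bp past rpl-36.A with 136. The lowest were gpr-158, 224 bp past rps-26 with 70.0, and hhat-2, 281 bp past rps-18 with 69.7. The signals of the 30 ran from 69.7 to 188, with a median of 101.2, and those of the other 100 coding sequence summits from 69.1 to 769.6, with a median of 105. Just 4 of the 30 were among the 3425 stronger peaks of the list.

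These summits sat beside far stronger ones. A thresholded summit in the promoter window of the ribosomal protein gene was present for 28 of the 30, and all 28 were in the strongest 10% of the list, with signals from 718 to 17427. The windows of rpl-24.1 and rps-10 held the same strong summit, so the 28 were not all separate. Such summits were common in the whole family. Of all 81 ribosomal protein genes, 74 had a promoter summit and 65 had 1 in the strongest 10%. The downstream summit had a median of 2.65% of the promoter's signal, from 0.438% in Y105E8A.14 past rps-20 to 17.5% in chmp-7 past rpl-32. rpl-19 and rla-1 had no thresholded summit in their windows. Of all 130 coding sequence summits, 43, or 33.1%, had a summit of the strongest 10% within 2000 bp. The 30 past a ribosomal protein gene made up 69.8% of those 43. The share was 5.30% of all thresholded summits, 4.80% of intron summits and 8.85% of 3′ UTR summits. The cause of this closeness was not tested.

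Summits past ribosomal protein genes were not confined to coding sequence. They numbered 2 in 3′ UTRs, 3 in 5′ UTRs, 11 in introns and 27 outside protein-coding genes, and those in 3′ UTRs were 1.77% of the class against 0.127% of 3′ UTR bases. The stronger of that pair was in tir-1, an innate immune and neuronal adaptor gene, 77 bp past rpl-3, with a signal of 264 and replicate signals of 131 and 142. Some thresholded summit lay up to 1000 bp downstream of 68 of the 81 ribosomal protein genes, or 84.0%, against 8.35% of all protein-coding genes. Ribosomal protein genes are short, with a median length of 754 bp.

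Both replicates showed the pattern. Among the coding sequence summits of each replicate's 6850 strongest regions, 27 of 130 lay past a ribosomal protein gene in replicate 1 and 25 of 134 in replicate 2. Of the 30 thresholded summits, 19 had a partner within 100 bp among the strongest regions of both replicates, against 70 of the other 100. The median of log2 replicate 2 over replicate 1 was 0.04 for the 30 and 0.34 for the others. Among coding sequence summits of pooled regions not in the thresholded list, 21 of 2043, or 1.03%, lay past a ribosomal protein gene, against the 23.1% of thresholded ones.

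Some of the other coding sequence summits lay downstream of other genes with strong promoter peaks. Outside the 81 ribosomal protein genes set by symbol, 766 genes had a summit of the strongest 10% in their promoter window. Of these, 16 had a coding sequence summit of another gene within 1000 bp past their 3′ end, or 2.09% (1.29 to 3.37%). There, 15 summits were not past a gene of the 81. The share was 0.381% of all protein-coding genes, 37.0% of ribosomal protein genes (27.3 to 47.9%) and 0.157% of the genes in neither set. The strongest of the 15 was the summit of 295 in T28D9.11, 604 bp past rsp-5. After it came 1 of 180 past eef-1A.1, which encodes a translation elongation factor, and 1 of 108 past pqn-59. Summits past eef-1G, elof-1, atp-2 and nog-1 had 104, 97.7, 94.5 and 93.1. Lower ones included 1 of 85.0 past icd-1, a subunit of the nascent polypeptide-associated complex. Another, of 73.0, was past ubq-2, which encodes ubiquitin fused to a ribosomal protein. Those past cts-1, the citrate synthase gene, and hrpa-1, an hnRNP gene, had signals of 74.0 and 82.1. All 766 genes together had a median length of 2180 bp, and the 15 summits were 32 to 604 bp past the gene.

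The 3′ UTR summits had a different place. Of 113, 52 lay in the promoter window of the gene that follows, or 46.0% (37.1 to 55.2%), against 28.9% of 3′ UTR bases, and no window held 61, or 54% (44.8 to 62.9%), against 71.1%. All 52 were on the same strand as that neighbour, which the head-to-tail arrangement largely fixes. The median summit was 302.5 bp upstream of the neighbour's 5′ end, and the median gap from the host's 3′ end to that 5′ end was 113 bp. Signal was higher in this set: the median was 142 in a neighbour's window and 107 in none.

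The strongest of all 243 was in the 3′ UTR of slc-25A46, a mitochondrial carrier family gene (chrI:13434276-13434795), 945 bp upstream of eif-3.J, which encodes a subunit of translation initiation factor 3. Its signal was 5893, with 3219.7 in replicate 1 and 2684 in replicate 2, and it ranked 85 in the list. T08B2.15 followed (chrI:6215404-6215775), with 1114 in the list and 559 in each replicate. Its summit lay 158 bp upstream of rbm-5 and also in the window of fars-1, the gene of a phenylalanyl-tRNA synthetase subunit. The first was thus far above the second, and both replicates had the same order.

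Among the strongest, 1 lay before a respiratory chain gene and 1 before a proteasome gene. The summit in alh-4, an aldehyde dehydrogenase gene (chrV:6427454-6427723), was 477 bp upstream of atp-4, an ATP synthase subunit gene, with a signal of 542 and replicate signals of 241 and 302. The summit in ulp-2, a SUMO protease gene (chrII:4955441-4955700), was 142 bp upstream of pbs-3, a proteasome subunit gene, with 500.5 in the list and 242 and 253 in the replicates. The summit in cept-2 (chrV:14351021-14351290) was 557 bp upstream of vha-13, a subunit gene of the vacuolar proton pump, with 475, 186 and 283.

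Other pairs had the same layout. That of spe-42, a sperm gene (chrV:11733551-11733788), was 208 bp upstream of npp-22, a nucleoporin gene, with 468 in the list and 228 and 236 in the replicates. C06H5.8 had 746 in the list and 392 and 357 in the replicates, 154 bp upstream of E01B7.2, and glb-29, a globin gene, had 654, 364 and 293, 169 bp upstream of Y17G7B.12. K08F9.3, with 439, was before K08F9.4 and K08F9.1, and tsen-54, a tRNA splicing endonuclease subunit gene with 396, was before F52C12.2. In each of these the replicate values were within 1.5-fold of each other, apart from cept-2.

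**Figure D4:**
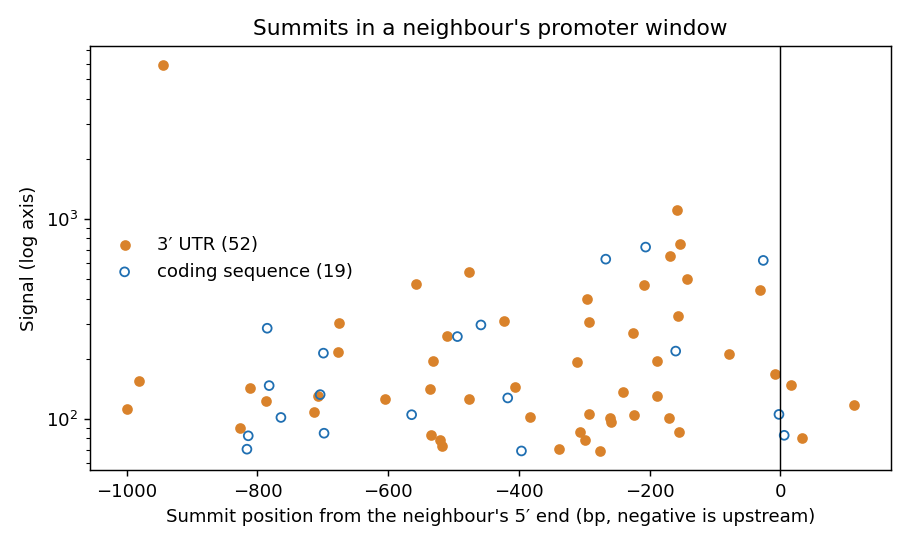
Signal (log axis) of the 52 3′ UTR summits (filled orange) and 19 coding sequence summits (open blue) that lay in a neighbour's promoter window, by position from the neighbour's 5′ end in bp, negative upstream. 3′ UTR summits were spread from 1000 bp upstream to 113 bp downstream with a median 302.5 bp upstream, and the point at 5893 is slc-25A46.

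Lower in the order, T10E9.14 preceded nuo-2, a respiratory complex I subunit gene, with a signal of 328. chtb-2 preceded rpt-3, a proteasome ATPase gene, with 302. The summit in pmk-3, a p38 MAP kinase gene (chrIV:8142835-8143210), lay 477 bp upstream of pmk-2, another kinase gene of the same family, with a signal of 126 and replicate signals of 73.1 and 53.9. The summit in the homeobox gene ceh-8 lay 605 bp upstream of the collagen gene col-63, with 125 in the list.

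The 61 3′ UTR summits in no window were led by eat-16, which encodes a regulator of G protein signalling (chrI:9725252-9725597). Its signal was 886, with 377 in replicate 1 and 512 in replicate 2, and the nearest 5′ end of another gene, ceh-5, was 1747 bp away. C05D11.8 followed with 418, with 164 and 254 in the replicates, then snf-6, a neurotransmitter transporter family gene (chrIII:1519957-1520258), with 334, 167 and 164. Y47H9C.12 had 284 and nra-1, a copine gene, had 266. Also in no window was lin-3, the gene of the EGF-like ligand of vulval induction, with 157 in the list, 55.4 in replicate 1 and 98.3 in replicate 2. lin-3 was named after its values were seen.

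3′ UTR summits were in the last exon in 110 of 113 cases, which the definition of the class largely fixes. Their median distance to the host's 3′ end was 153 bp. A tRNA gene lay under 2 of them, in W02G9.3 with a signal of 206 and in mdf-2, a spindle checkpoint gene, with 137. No coding sequence summit lay under a tRNA gene, which allows a share of up to 2.87% by the Wilson interval. The share of all thresholded summits under a tRNA gene was not computed, so neither count can be called high or low. A 5′ end of a tRNA, snoRNA, snRNA, miRNA or rRNA gene lay within 500 bp of 5 coding sequence summits, or 3.85%, and of 3 3′ UTR summits, or 2.65%, against 6.15% of all thresholded summits.

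Replicate support was lower than in the rest of the list. A partner, meaning a summit within 100 bp among the 6850 strongest regions of a replicate, was found in both replicates for 173 of 243, or 71.2% (65.2 to 76.5%), against 81.3% of all thresholded summits. The share was 68.5% in coding sequence and 74.3% in 3′ UTRs. Among the weaker peaks of the list, ranks past 3425, it was 60.1% for the 243 and 63.6% for all, a difference within the interval of 52.7 to 67.1%. A partner anywhere in both full lists was found for 94.7% against 96.6%. Only 5 had a partner in neither replicate's strongest regions.

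Of the strongest summits without a partner in both replicates, pals-26 had a signal of 246, with 108 in replicate 1 and 148 in replicate 2, and lacked a replicate 1 partner because the nearest summit was 249 bp away. T10G3.8 had 147, with 37.2 and 108. abhd-5.2 had 131, with 63.7 and 69.0, and missed the replicate 2 partner by 7 bp at 107 bp. C14B9.3 had 103 in the list, but the overlapping replicate regions had 281 and 342 and their summits were 146 and 200 bp away, so those values belong to a neighbouring summit. In pals-26 the replicate 1 summit lay outside the peak, with another thresholded summit 199 bp away, so the value of 108 may also belong to a neighbouring summit.

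The median of log2 replicate 2 over replicate 1 was 0.28 at coding sequence summits (SD 0.58), 0.02 at 3′ UTR summits (SD 0.58) and 0.20 over all thresholded peaks (SD 0.50). Replicate 2 was higher at 88 of 129 coding sequence summits with both values, or 68.2%, and at 58 of 113 3′ UTR summits, or 51.3%, against 68.3% of all. The spread between summits exceeded the difference between the classes. At the extremes, ZK1010.2 had 11.6 and 57.7, tag-151 had 11.2 and 52.6, and K03B4.1 had 61.4 and 19.6. T21H3.5 had 42.3 in replicate 1 and no overlapping region in replicate 2.

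**Figure D5:**
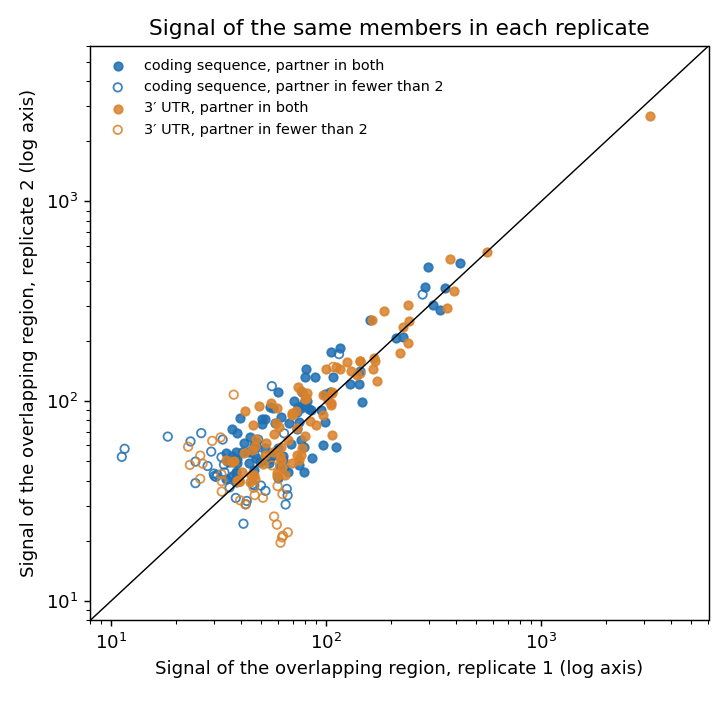
Signal of the overlapping region in replicate 1 and replicate 2 (both log axes) for coding sequence (blue) and 3′ UTR (orange) summits; filled points had a partner summit in both replicates and open points in fewer than 2, and the line marks equal values. Where either replicate was above 200 the pair differed by at most 0.67 on the log2 scale, and C14B9.3 is the open point at 281 and 342.

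Few host genes carried more than 1 of these summits. nhr-21, a nuclear hormone receptor gene, had 3 in coding sequence: in exon 10 of 10 with a signal of 175, in exon 2 with 156 and in exon 1 with 106. The exon 2 summit lay 45 bp and the exon 1 summit 7 bp downstream of the 5′ end of a transcript. T05G5.1 had summits of 179 and 77.5, and W06H8.6 had 2 in its 3′ UTR of 119 and 83.2. arl-13, a ciliary GTPase gene, had 1 of 110.1 at 165 bp past rla-1 and 1 of 81.1 at 268 bp past moag-4.

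The host genes were compared with gene families listed by their symbols. Of all protein-coding genes, 0.631% hosted a coding sequence summit and 0.561% a 3′ UTR summit. Of 269 nuclear hormone receptor genes, 3 (nhr-34, nhr-21 and nhr-40), or 1.12%, were hosts in coding sequence. Of 1365 chemoreceptor genes 1 was, or 0.0733%, srw-85 with a signal of 84.1, and of 240 C-type lectin genes 1 was, or 0.417%, clec-1 with 80.3. In 3′ UTRs, the hosts included 2 of 63 homeobox genes, ceh-8 and ceh-88 with 125 and 195, and 1 of 22 heat shock genes, hsp-25 with 77.4. No ribosomal protein, histone, F-box, vitellogenin, major sperm protein or muscle structure gene of the lists was a host. Nor was any listed translation factor, aminoacyl-tRNA synthetase, respiratory chain, proteasome or collagen gene. These lists had 6 to 328 genes, and a count of 0 carries a wide counting error. As neighbours of 3′ UTR summits, 2 genes each came from the translation factors and aminoacyl-tRNA synthetases, the respiratory chain and the proteasome, which had 69, 33 and 33 genes. These were 2.90%, 6.06% and 6.06% of the lists, against 0.28% of all protein-coding genes, and counts of 2 carry a wide counting error.

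The weakest peaks of each class lay near the bottom of the list, whose lowest signal was 68.8. In coding sequence these were gpr-158 and hhat-2, past ribosomal protein genes as above, tag-151 with 69.2 and D2005.4 with 69.1. In 3′ UTRs they were rib-2, a heparan sulfate glycosyltransferase gene, with 70.1, nos-3, a Nanos family gene, with 69.7, vang-1, a planar cell polarity gene, with 69.2, and F19B6.1 with 69.1. F19B6.1 lay 276 bp upstream of ufd-1, a ubiquitin-dependent degradation gene, and had 66.3 in replicate 1 and 22 in replicate 2.

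Sequence within 50 bp of the summits differed between the classes. AATAAA, on either strand, was in 34 of 113 3′ UTR windows, or 30.1% (22.4 to 39.1%), in 11.5% of coding sequence windows and in 14.9% of all thresholded windows. It was in 41.0% of 3′ UTR windows outside promoter windows and in 17.3% of those inside. The same letters are the polyadenylation signal of animal genes, so they are common near the 3′ ends of genes. GAGAGA was in 13.8% of coding sequence windows (8.94 to 20.8%) and 23.9% of 3′ UTR windows, against 28.1% of all. ACGCAG was in 9.23% and 15%, against 15.1%, and TTTCAG, the letters of the splice acceptor of this species, in 12.3% and 5.31%, against 6.38%.

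The same words were counted in the windows past ribosomal protein genes. Of those 30 coding sequence windows, ACGCAG was in 0 and GAGAGA in 2, or 6.67% (1.85 to 21.3%). Of the other 100 coding sequence windows ACGCAG was in 12 and GAGAGA in 16, and the 16% for GAGAGA lies within the interval of the 30. The upper Wilson bound for ACGCAG at 0 of 30 was 11.4%, close to the 12% of the others and below the 15.1% of all windows. TTTCAG was in 5 of the 30 and 11 of the 100. The median GC content was 40.1% in the 30 and 44.6% in the 100.

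Words of 10 bases recurred in some windows. GAGACGCAGA, which contains ACGCAG, was in 12 of the 243 windows, 8 of them in 3′ UTRs, or 4.94%, against 6.77% of all thresholded windows. CGGTGTTTGC was in 6, or 2.47%, against 2.36%, among them slc-25A46 and alh-4, and CGCAAACACC, which overlaps it on the other strand, was in 5. GGTTACTGTA was in 6, also 2.47%, against 0.905% of all, and its hosts were W06H8.6, fat-3, nhr-21, snf-6, ttc-7 and ztf-20, of which fat-3 encodes a fatty acid desaturase. In total 40 windows held at least 1 of 13 such words, or 16.5%, against 15.8% of all, with 9.23% in coding sequence and 24.8% in 3′ UTRs.

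The 243 summits were on every nuclear chromosome. Chromosome I held 59, which was 4.51% of its thresholded peaks, and X held 25, or 2.43% of its peaks. Chromosomes II, III, IV and V held 29, 46, 41 and 43. Promoter windows held 44.4% of the 243 (38.3 to 50.7%), against 48.8% of all thresholded summits.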

How the data were processed

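Chromatin immunoprecipitation of eGFP-tagged LSY-2 was sequenced in 2 biological replicates. Per the labels, DNA fragments were 150 to 350 bp. The antibody entry of the labels reads lsy-2 and does not say whether the antibody bound the tag or the protein. Per the README texts, the authors deposited lists of peaks together with background, 1 for each replicate and 1 for both pooled (30000 regions each), derived from the alignments and 1 further file whose content those texts do not give. They also deposited the thresholded list called optimal, which an irreproducible discovery rate step made from these. All are in ce11. No aligner, peak caller, version or read depth was given in the sources used here. The signal value per region is the authors', and is used as deposited, to describe and rank peaks within a list; its scaling is not stated. The summit offset in bp is the authors' deposited value, counted from the interval start. The ce10 lists were not used.

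Coordinates are 1-based in ce11, which is WBcel235. Genes came from Ensembl release 115 (19973 protein-coding genes, 31853 transcripts) and bases from the RefSeq copy of the assembly. Classes, promoter windows, partners within 100 bp, Wilson 95% intervals and word counts were computed with Python 3.11.15, numpy 2.4.6, pandas 2.3.3 and statsmodels 0.14.6, and figures with matplotlib 3.10.9. A replicate's value for a peak is the highest signal among its regions that overlap the peak. The steps were tested on simulated positions. The 243 peaks, the lists and the rules were chosen with earlier results of these data known. Genes named are hosts and neighbours of the 12 strongest summits of each class, of the 8 strongest in no window, of the 4 weakest of each class and of the 5 strongest lacking a partner in both replicates, hosts with at least 2 summits, and up to 3 hosts per list; genes named beside ribosomal protein genes, other genes with strong promoter peaks and the remaining genes below the 12 strongest were chosen after their values were seen. Alternatives were other class rules, promoter windows and partner distances, the 3425 stronger peaks, and each replicate's strongest regions alone.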

Additional observations from a re-analysis of the deposited data

How the results depend on the processing

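Of 97 values recomputed under alternatives, 71 were counted as unchanged from the main value and 26 as moved, and none has a test. Not all of the 71 were within the Wilson interval of the main value. The 3′ UTR share from replicate 1's strongest regions was 2.03%, against an interval of 1.37 to 1.98%. With summits at least 25 bp inside the feature, coding sequence kept 86. Among the 3425 stronger peaks, coding sequence held 32 summits (median signal 228; 25% in a neighbour's window; 12.5% past a ribosomal protein gene) and 3′ UTRs 38 (267; 55.3%; 44.7% in no window). From 1 replicate's regions alone, medians were 52.1 to 60.5 in coding sequence and 58.4 to 66.9 in 3′ UTRs, on those lists' own scale. With a window of 500 bp upstream and 100 bp downstream, a neighbour's window held 7.69% of coding sequence and 29.2% of 3′ UTR summits and no window 74.6% and 70.8%. With 2000 bp and 500 bp these were 39.2%, 61.9%, 33.8% and 38.1%. With the 5′ ends of every transcript, 47.7% of coding sequence summits were in no window. The share with a partner in both replicates was 59.3% within 50 bp, 76.5% within 200 bp, 94.7% in the full lists and 98.6% among stronger peaks. The alternatives on ribosomal protein genes, and taking 5′ UTR before 3′ UTR, which gave 109 3′ UTR summits, were chosen after seeing the data; limits of 500 and 2000 bp gave 20.8% and 24.6% past a ribosomal protein gene. No paired analysis was possible because there is only 1 group. With 2 replicates, unknown depth and no untagged sample analysed here, signal that a strain without the tag would give at these places was not measured.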
